A study of Mus musculus with 8 samples.

Results

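The genes described here are those of the mitochondrial respiratory chain and ATP synthase, measured by RNA sequencing of whole hippocampus. They were chosen from the deposited table by symbol alone: every gene whose name begins with Nduf, Uqcr or Atp5, the genes Sdha to Sdhd, Cyc1, the Cox4 to Cox8 genes, and the protein-coding genes of the mitochondrial genome, without symbols that carry the pseudogene mark -ps (4 were left out). The rule found 106 genes of 46983 in the table, 93 encoded in the nucleus and 13 in mitochondrial DNA. XBP1s-TG mice (4 libraries, S1 to S4) carry TRE-XBP1s, a transgene for the spliced, active form of X-box-binding protein 1, and Camk2a-tTA, a transactivator driven by the promoter of Camk2a that is active in forebrain excitatory neurons. They were set against Control mice (4 libraries, S5 to S8), labelled only as such. Both groups were C57BL/6 mice of both sexes aged 2 months, and tissue was taken 7 days after doxycycline, which keeps the transgene off, was withdrawn. Other cells of the hippocampus dilute the neurons in which the transgene is switched on, and in such bulk tissue fewer cells of a type cannot be told apart from less RNA per cell.

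The respiratory chain passes electrons from NADH and succinate to oxygen through complexes I to IV, 3 of which pump protons across the inner mitochondrial membrane, and complex V (ATP synthase) uses the proton gradient to make ATP. Neurons depend heavily on this supply, since ion pumping at synapses and axons consumes much of it. All complexes except complex II are mosaics: mitochondrial DNA encodes a few core subunits, transcribed within the organelle as long precursor RNAs that are cut into single mRNAs, and the nucleus encodes the other subunits, made in the cytosol and imported. XBP1s is a transcription factor of the unfolded protein response, the program that enlarges the capacity of the endoplasmic reticulum for folding and secretion.

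Values are TPM (reads per kilobase of exon, scaled to a total of 1000000 in every library). Libraries held 35256562 to 41830353 reads assigned to genes in XBP1s-TG and 34874446 to 52136060 in Control. Xbp1 was at 549 to 1094 TPM in XBP1s-TG and 68.9 to 71.9 TPM in Control, as the labels say. Markers of excitatory hippocampal neurons summed to 3743 to 4160 TPM in XBP1s-TG and 3768 to 4262 TPM in Control, with overlap, but single markers moved apart: 2 of 10 were higher and 4 lower in the fit described below (1 and 4 without normalization), among them Wfs1, a membrane protein of the endoplasmic reticulum (log2 fold change 1.98, adjusted p = 7.93e-06 by limma), and Neurod6, a transcription factor (-0.94, adjusted p = 0.00109). Interneuron markers summed to 1575 to 1734 TPM in XBP1s-TG and 1366 to 1561 TPM in Control, without overlap. Single interneuron markers went both ways: of 10 tested 1 was higher and 2 lower in the fit (2 and 1 without normalization). In TPM 34.1% of all genes tested were higher without overlap. The XBP1s-TG libraries S1 and S3 stood apart from the other 6: the summed level of 14 choroid plexus markers was 92.4 and 189 TPM in them, against 5219 and 9268 TPM in S2 and S4 and 4085 to 9059 TPM in Control. S1 also held more RNA of 10 hypothalamus markers, at 460.3 TPM against 146 to 166 TPM in the other XBP1s-TG libraries and 123 to 152 TPM in Control. Of 10 microglia markers 8 were tested and 8 were lower in the fit, where 29.4% of all genes were, but 3 of 8 with trimmed mean scaling (24.2% of all genes) and 1 of 8 without normalization (14.6%), and their summed level overlapped (489 to 578 TPM in XBP1s-TG and 560 to 588 TPM in Control). The part of choroid plexus, hypothalamus, interneuron and microglia RNA in the results below was not tested. For single genes described below, a call that ended without S1 and S3 in the same fit is given with its value there.

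The main comparison used limma on quantile-normalized log2(TPM + 2) values, fitted to the 9270 genes with at least 1 library above 14 TPM, with Benjamini-Hochberg adjustment over all of them. "Rose" and "fell" below mean an adjusted p under 0.05 in that fit, and fold changes are XBP1s-TG minus Control on that log2 scale. Of the 106 genes 99 were tested, and 12 rose while 29 fell. Over all genes tested 24.4% rose and 29.4% fell, so in this fit the numbers of subunit genes called were near the background in the falling direction and below it in the rising one. The falling count includes the 13 mitochondrial genes, most of which hold top ranks that limit their differences on this scale, as described below. Of the 99 genes 20 were lower without normalization (14.6% of all genes), 28 with trimmed mean scaling (24.2%) and 45 with median centring (32.4%). Higher were 18 (33.9%), 12 (26.0%) and 7 (22.2%) in the same order. The differences were small: 1 gene, Atp5s, also passed a fold change of 1.5, a limit that 5.61% of all genes passed upward and 2.75% downward. The median log2 fold change of the 86 nuclear genes tested was -0.09, beside -0.04 for all genes tested.

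The 13 mRNAs of the mitochondrial genome together took 14.99%, 16.6%, 13.8% and 15.03% of all TPM in the XBP1s-TG libraries, against 18.6%, 18.1%, 18.2% and 20.6% in the Control libraries. Every XBP1s-TG library lay below every Control library, and the mean share was 15.1% ± 1.14 in XBP1s-TG and 18.9% ± 1.13 in Control (SD, n = 4 each), a difference of -20.1% of the Control mean. The 93 nuclear genes summed to 2.19%, 2.13%, 2.18% and 2.15% of TPM in XBP1s-TG and 1.98%, 2.13%, 2.13% and 2.16% in Control, and these groups overlapped.

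All 13 mitochondrial mRNAs had a lower mean TPM in XBP1s-TG than in Control, by -12.5% (mt-Nd5) to -29.7% (mt-Nd3). With the reads of its nuclear copy added, as described below, mt-Nd3 differed by -20.8%. Of the 13, 10 had groups without overlap, where 13.2% of all genes tested had lower XBP1s-TG values without overlap. Among the 7 complex I subunits, mt-Nd1, a membrane subunit next to the quinone pocket, was at 10766, 11789, 9926 and 11243 TPM in XBP1s-TG against 14396, 13643, 13395 and 14752 TPM in Control. mt-Nd2, one of the proton-pumping subunits of the membrane arm, was at 6415, 7362, 6438 and 7191 TPM in XBP1s-TG against 9297, 8796, 8867 and 10117 TPM in Control. For both genes the highest XBP1s-TG library was well under the lowest Control library. The other pumping subunits were mt-Nd4, at 10475 to 12279 TPM in XBP1s-TG and 12924 to 14617 TPM in Control without overlap, and mt-Nd5, at 4649 to 5985 TPM in XBP1s-TG and 5479.8 to 6588 TPM in Control with overlap. The smaller membrane subunits mt-Nd3 (3672 to 4213 TPM in XBP1s-TG and 4615 to 7181 TPM in Control) and mt-Nd4l (7439.7 to 9738 TPM in XBP1s-TG and 9826 to 11695 TPM in Control) did not overlap. mt-Nd6, the 1 subunit encoded on the opposite (light) strand, was the least abundant, at 1019 to 1232 TPM in XBP1s-TG and 1061 to 1771 TPM in Control, and its groups overlapped too.

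mt-Cytb, the cytochrome b of complex III, was at 12213, 13719.8, 11812 and 12874 TPM in XBP1s-TG against 15458, 14026, 14338 and 16313 TPM in Control. In complex IV, mt-Co1, which holds the oxygen-reducing centre and was the most abundant gene of every library, was at 27326, 30259, 26046 and 29241 TPM in XBP1s-TG against 35949, 31549, 32964 and 35735 TPM in Control. mt-Co2, which accepts electrons from cytochrome c, was at 11279 to 14282 TPM in XBP1s-TG and 15012 to 17704 TPM in Control, without overlap, whereas mt-Co3, the third core subunit of complex IV, overlapped at 12145 to 17292 TPM in XBP1s-TG and 15720.3 to 22307 TPM in Control. In complex V, mt-Atp6, the subunit that forms the proton path beside the c-ring, was at 22161, 23605, 20890.4 and 23398 TPM in XBP1s-TG against 28461, 25546, 24225 and 29792 TPM in Control, and mt-Atp8 was at 11161 to 14312 TPM in XBP1s-TG and 15151 to 19095 TPM in Control. Neither gene's groups overlapped. The 13 mRNAs share precursor RNAs, and neighbouring genes share bases (43 between mt-Atp8 and mt-Atp6, 14 between mt-Nd5 and mt-Nd6 on opposite strands), so that they are not 13 independent measurements.

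**Figure D1:**
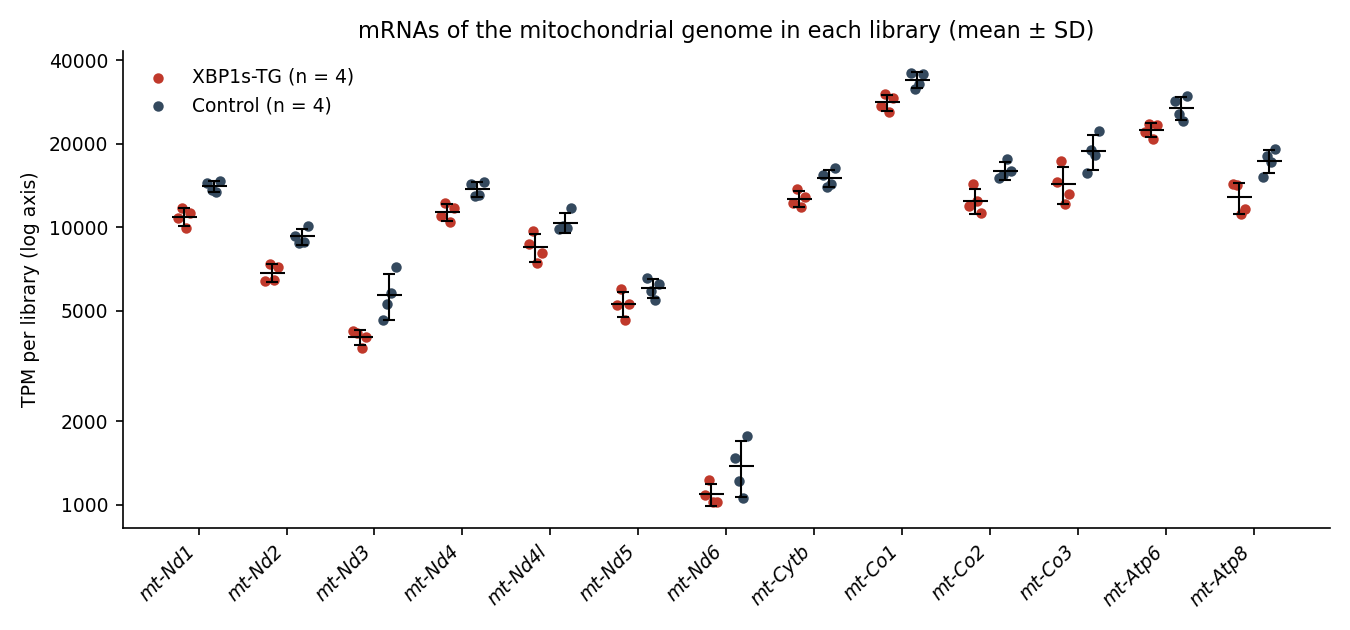
TPM in each library (log axis) of the 13 mRNAs encoded by mitochondrial DNA, for XBP1s-TG (red, left of each pair) and Control (dark, right), with mean and SD of 4 libraries. In 10 of the 13 genes every XBP1s-TG point lies below every Control point, and mt-Co3, mt-Nd5 and mt-Nd6 overlap.

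Whether these differences pass the test depended on how the libraries were scaled. Quantile normalization gives the genes at each rank the same value in every library, and the mitochondrial genes hold the top ranks. mt-Co1 ranked first and mt-Atp6 second in all 8 libraries, so their difference is 0 on that scale by construction, and all 13 except mt-Nd6 stood within the first 18 ranks. On that scale 1 of 13 fell (mt-Nd2, log2 fold change -0.16, SE 0.041, adjusted p = 0.0100 by limma, and 0.115 without S1 and S3), 2 were lower at an unadjusted p under 0.05, and mt-Nd4, mt-Nd5, mt-Cytb and mt-Co2 had estimates above 0 (0.02 to 0.12). Without normalization beyond TPM, 11 of 13 were lower at an adjusted p under 0.05, where 14.6% of all genes were. The median log2 fold change of the 13 was then -0.32, beside 0.07 for all genes tested. On the reads of each gene alone, without its copies, the largest were mt-Nd3 (-0.49, SE 0.12, adjusted p = 0.00550 by limma), mt-Atp8 (-0.44, SE 0.098, adjusted p = 0.00406) and mt-Nd2 (-0.44, SE 0.064, adjusted p = 3.71e-04). In the same fit mt-Nd5 (adjusted p = 0.0697) and mt-Nd6 (adjusted p = 0.0839) did not pass. Trimmed mean scaling gave 12 of 13 lower (24.2% of all genes) and median centring 13 of 13 (32.4%). Without S1 and S3 the unnormalized fit called 4 of 13 lower, where it called 9.01% of all genes lower. Median centring without them called 5 of 13 lower, where it called 20.4% of all genes lower. On the recovered read counts voom called 3 of 13 lower with quantile normalization and 12 of 13 without (29.5% and 20.7% of all genes), and of all 99 members it called 8 and 14 higher (23.7% and 29.3% of all genes). The 2 remaining XBP1s-TG libraries, S2 and S4, took 16.6% and 15.03% of TPM in the 13 mRNAs, still under all 4 Control libraries.

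**Figure D2:**
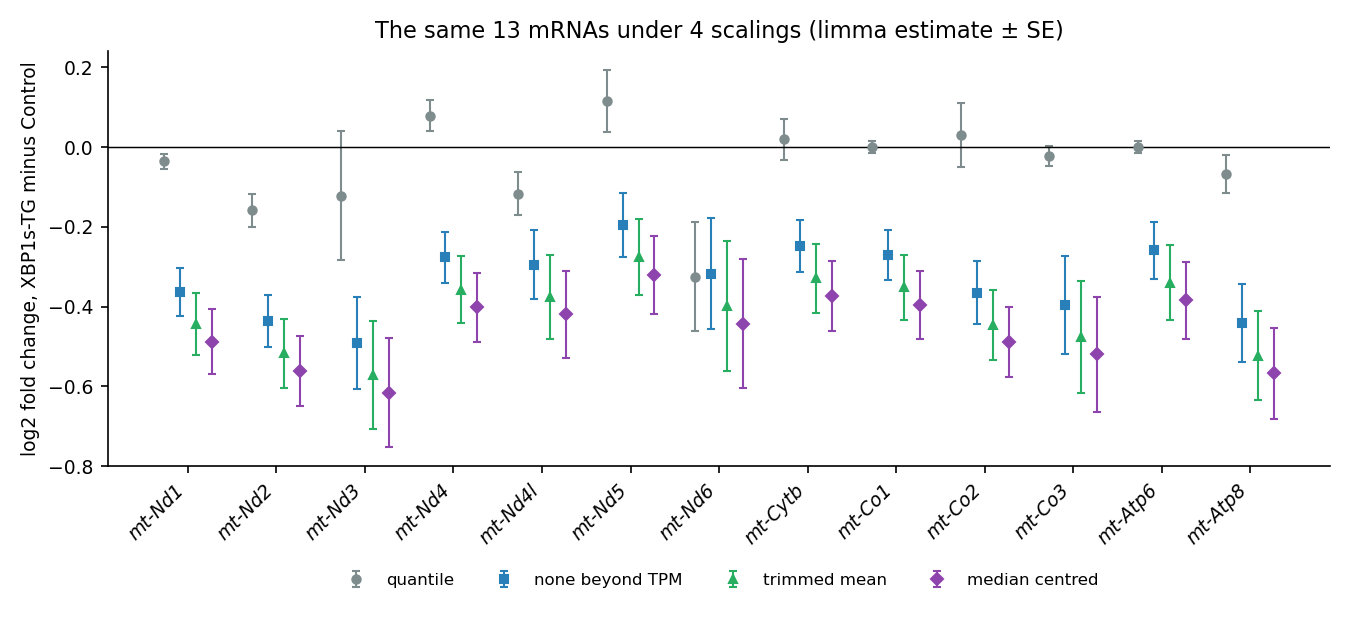
Log2 fold change (XBP1s-TG minus Control) of each mitochondrial mRNA with its SE from limma, under 4 scalings of the libraries. Quantile-normalized estimates (grey circles) lie near 0 for most genes, from -0.32 to 0.12, while the other 3 scalings place all 13 genes below 0.

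The 2 ribosomal RNAs of the mitochondrion, mt-Rnr1 and mt-Rnr2, were lower in TPM as well. They summed to 16679, 16659, 16888 and 17567 TPM in XBP1s-TG against 19342, 19256, 18407 and 20797 TPM in Control. The groups did not overlap, and the means differed by -12.9%. In the quantile-normalized fit neither passed, with estimates of 0.06 for mt-Rnr1 and 0.05 for mt-Rnr2 (adjusted p = 0.132 and 0.252 by limma). Without normalization both were called lower (-0.24 and -0.16, adjusted p = 0.00127 and 0.0280). The ratio of the 13 mRNAs to these ribosomal RNAs was 8.18 to 9.96 in XBP1s-TG and 9.42 to 9.91 in Control, with overlap. Transfer RNAs, the punctuation of the precursor RNAs, were mostly near 0 TPM in these libraries. Of the 10 ribosomal and transfer RNAs tested 6 fell in the quantile-normalized fit, where 29.4% of all genes did. Without normalization 8 were lower (14.6% of all genes). Among the 6 were mt-Tm (125 ± 8.18 TPM in XBP1s-TG and 207 ± 34.7 TPM in Control, log2 fold change -0.81, adjusted p = 3.85e-04 by limma) and mt-Tw (118 ± 6.44 TPM in XBP1s-TG and 155 ± 14.8 TPM in Control, -0.49, adjusted p = 3.98e-04). mt-Tw shares 2 bases with mt-Nd2, and these RNAs share precursor RNAs with the mRNAs, so they are not independent measurements.

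Part of the mitochondrial reads is assigned to nuclear copies of mitochondrial DNA, pseudogenes whose sequence is the same or nearly so. Of all reads of mt-Co2 and its copies, 37.9% stood under the copies, and this share was 27.4% for mt-Nd3, 22.4% for mt-Co3 and 8.15% for mt-Atp6. For the other 9 mitochondrial genes and for every nuclear subunit gene it was under 5%. A stretch of mt-Co2 (bases 445 to 564 of the gene) is shown with its copies Gm28661 on chromosome 1 and Gm13341 on chromosome 2, from GENCODE M21 transcripts on GRCm38. It was picked as the window of 120 bases without gaps in which the 3 differ most. Over the whole alignment Gm13341 was 95.9% identical to mt-Co2 (684 bases) and Gm28661 100% (681 bases). Capitals mark bases at which the 3 differ.
mt-Co2: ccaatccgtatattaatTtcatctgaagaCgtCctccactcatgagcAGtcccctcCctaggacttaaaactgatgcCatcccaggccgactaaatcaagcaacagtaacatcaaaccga
Gm28661: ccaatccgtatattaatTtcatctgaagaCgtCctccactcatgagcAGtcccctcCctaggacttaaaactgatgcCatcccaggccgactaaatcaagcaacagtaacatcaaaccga
Gm13341: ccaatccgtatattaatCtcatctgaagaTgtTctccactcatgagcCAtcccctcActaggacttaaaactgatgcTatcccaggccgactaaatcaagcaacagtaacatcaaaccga
Gm28661 has 0 differences from mt-Co2 over these 120 bases, so reads of these bases cannot be told apart between the pair, and Gm13341 has 7. Gm13341 held more reads than Gm28661 in every library, at 35010 to 55373 in XBP1s-TG and 34923 to 88101 in Control, against 13134 to 21500 in XBP1s-TG and 13669 to 38026 in Control for Gm28661. Gm28437, the copy of mt-Co3, held 3453 to 6621 TPM in XBP1s-TG and 2693 to 7887 TPM in Control. Its share of the reads of the pair was 16.6% to 33.4% in XBP1s-TG libraries and 12.4% to 33.4% in Control libraries. Once the reads of the copies were added to the gene, mt-Co3 was at 18238 to 20741 TPM in XBP1s-TG and 21337 to 26034 TPM in Control, without overlap, and 11 of the 13 genes had groups without overlap. The unnormalized fit called 11 of 13 lower with the copies added, and of the 99 members 18 higher, where it called 34.0% of all genes higher.

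Complex by complex, the mitochondrial share of subunit mRNA was lower in XBP1s-TG. The summed TPM of mitochondrial over nuclear subunits of complex I was 7.21, 8.28, 6.69 and 7.58 in XBP1s-TG against 10.3, 9.02, 9.14 and 10.3 in Control. For complex III the ratio was 4.40 to 5.45 in XBP1s-TG and 5.82 to 6.92 in Control, for complex IV 7.90 to 9.89 in XBP1s-TG and 10.6 to 11.7 in Control, and for complex V 6.73 to 7.93 in XBP1s-TG and 8.46 to 9.87 in Control. In none of the 4 complexes did the groups overlap, and the ratio of means differed by -19.5% to -23.3%. Such ratios within a library do not depend on how libraries are scaled to each other. They show unequal levels of the 2 genomes, not which of them moved. The summed nuclear subunits of complex III and of complex II were higher in XBP1s-TG without overlap (2519.5 to 2686 TPM in XBP1s-TG and 2232 to 2442 TPM in Control for complex III, and 718 to 740.1 TPM in XBP1s-TG and 680.3 to 699 TPM in Control for complex II), whereas those of complexes I, IV and V overlapped. In TPM 34.1% of all single genes tested were also higher without overlap. In the quantile-normalized fit the median log2 fold change was -0.02 for complex II and 0.04 for complex III (-0.04 for all genes tested). Without normalization it was 0.08 and 0.12 (0.07 for all genes tested). As a share of the TPM of nuclear genes only, all nuclear members together took 2.58% to 2.63% in XBP1s-TG and 2.50% to 2.80% in Control, with overlap.

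**Figure D3:**
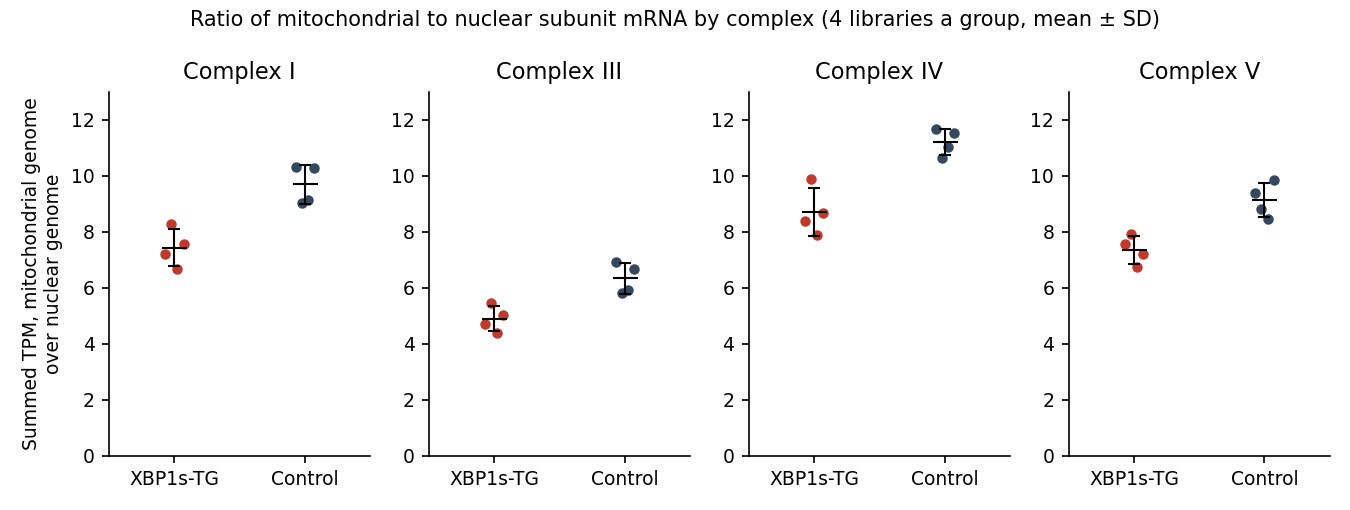
Summed TPM of mitochondrial subunits divided by summed TPM of nuclear subunits, per library, for the 4 complexes built from both genomes (XBP1s-TG left, Control right, mean and SD of 4 libraries). In each complex all XBP1s-TG libraries lie below all Control libraries, for example at most 8.28 in XBP1s-TG against at least 9.02 in Control for complex I.

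The nuclear genes moved in both directions within each of complexes I, III, IV and V. Whether single genes passed also depended on scaling here. Without normalization beyond TPM 18 nuclear genes were higher and 9 lower (33.9% and 14.6% of all genes). With median centring 7 were higher and 32 lower (22.2% and 32.4%), and with trimmed mean scaling 12 were higher and 16 lower (26.0% and 24.2%). The shift between these scalings is common to all genes, whose median log2 fold change was 0.07 without normalization and -0.06 with median centring. All 12 genes that rose were also called higher without normalization, 11 of them with trimmed mean scaling and 7 with median centring. Of the 28 nuclear genes that fell 9 were also called lower without normalization, 15 with trimmed mean scaling and 28 with median centring. The estimates of all 12 and all 28 kept their sign under these scalings. Without S1 and S3, 5 of the 12 and 11 of the 28 were still called, where 17.1% of all genes rose and 18.6% fell. With normalization left out too, 9 of the 12 and 3 of the 28 were still called (22.7% of all genes higher and 9.01% lower). In TPM itself 20 nuclear genes were higher and 13 lower without overlap of the groups, as were 34.1% and 13.2% of all genes tested.

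**Figure D4:**
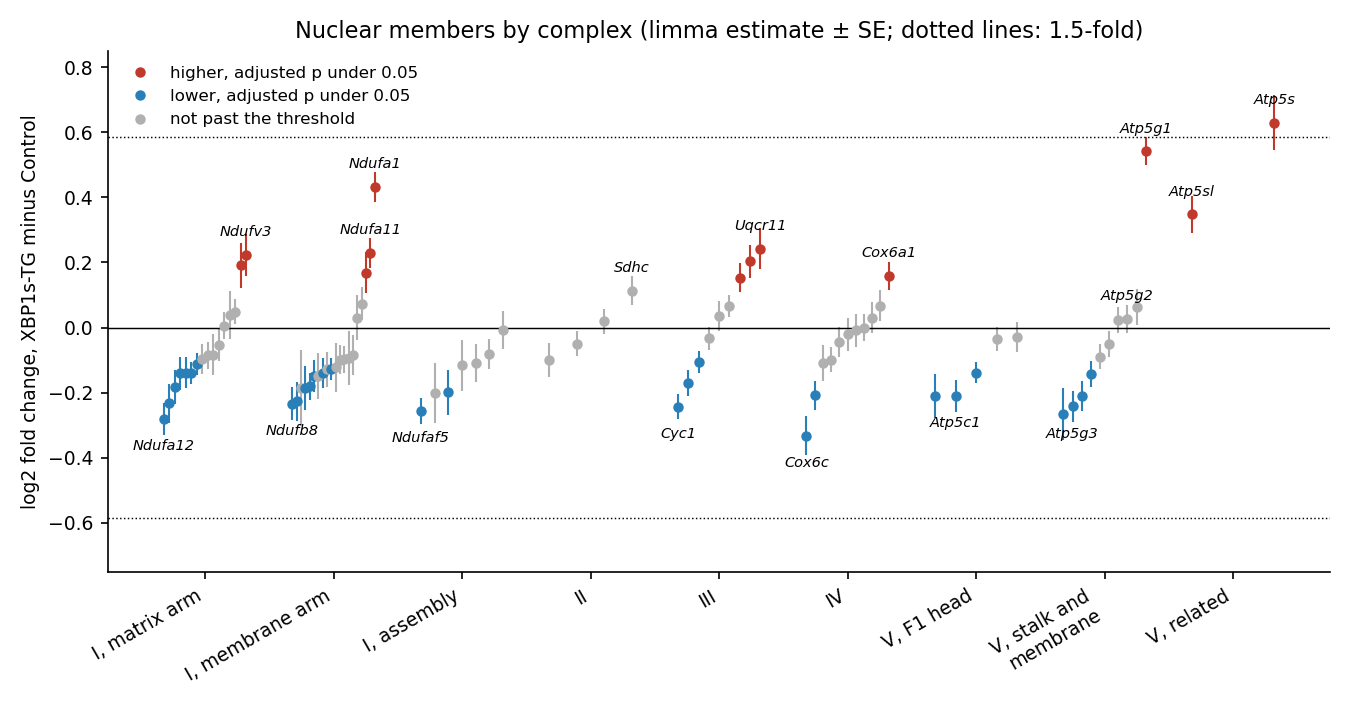
Log2 fold change (XBP1s-TG minus Control, quantile-normalized, limma) with SE of the nuclear genes tested, grouped by complex and ordered within each group, with dotted lines at 1.5-fold. Most genes lie between -0.3 and 0.3, and Atp5s (0.63), Atp5g1 (0.54) and Ndufa1 (0.43) stand highest. Cox6a2 and Cox7a2l are not drawn.

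Complex I is the entry point for electrons from NADH. In its matrix arm, which carries the electron path, 2 of 16 genes rose and 7 fell. Without normalization 3 were higher and 1 lower. Beside these counts and those of the other complexes below, 24.4% of all genes rose and 29.4% fell. Without normalization 33.9% of all genes were higher and 14.6% lower. Ndufa12, a supernumerary subunit that joins late in assembly, fell: it was at 146, 143, 141 and 149 TPM in XBP1s-TG against 158, 164, 163 and 174 TPM in Control (log2 fold change -0.28, SE 0.050, adjusted p = 0.00134 by limma). Ndufa5, a supernumerary subunit of the arm, was at 157 to 172 TPM in XBP1s-TG and 172 to 197 TPM in Control (-0.23, adjusted p = 0.00924), and did not pass without normalization (-0.14, adjusted p = 0.0602) or without S1 and S3 (-0.22, adjusted p = 0.0510). Ndufa6, the gene of this arm with the highest mean over all 8 libraries, also fell in the fit (-0.14, SE 0.050, adjusted p = 0.0389), but its TPM overlapped at 287 to 306 in XBP1s-TG and 278 to 319.9 in Control and it passed neither without normalization (-0.05, adjusted p = 0.448), nor with trimmed mean scaling (-0.13, adjusted p = 0.109), nor without S1 and S3 (-0.11, adjusted p = 0.165). Leaving out any 1 of S1, S3, S4, S6, S7 or S8 also ended the call of Ndufa6. Ndufv3, a small subunit of the NADH-binding module, rose, at 77.3 to 86.1 TPM in XBP1s-TG and 56.7 to 68.8 TPM in Control (0.22, SE 0.065, adjusted p = 0.0170), but not without S1 and S3 (0.20, adjusted p = 0.110). Ndufa2 rose in the fit, at 300.3 to 341 TPM in XBP1s-TG and 226 to 283 TPM in Control (0.19, adjusted p = 0.0408), above Ndufa6 in every XBP1s-TG library. It did not pass with median centring (0.16, adjusted p = 0.0766), without S1 and S3 (0.16, adjusted p = 0.196) or without any 1 of S1, S2, S3 or S7.

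In the membrane arm, which pumps protons, 3 of 20 nuclear genes rose and 7 fell (4 higher and 1 lower without normalization). Ndufa1 (ENSMUSG00000016427, chrX:37187588-37191163 on GRCm38, minus strand), a small single-span subunit needed for assembly of the arm, rose: it was at 523, 446, 502 and 482 TPM in XBP1s-TG against 322, 343, 352 and 347 TPM in Control. Its lowest XBP1s-TG library exceeded its highest Control library by a wide margin (log2 fold change 0.43, SE 0.046, adjusted p = 7.00e-05 by limma). Ndufa11, which holds a junction of the arm together, rose at 85.2 to 93.8 TPM in XBP1s-TG and 65.5 to 72.9 TPM in Control (0.23, SE 0.047, adjusted p = 0.00270). Ndufb8, a subunit at the far end of the arm, fell, at 88.6 ± 3.29 TPM in XBP1s-TG and 95.9 ± 1.82 TPM in Control (SD, n = 4 each, no overlap, -0.23, SE 0.051, adjusted p = 0.00380). Ndufb9, the most abundant gene of the arm, did not pass (537 to 579 TPM in XBP1s-TG and 591 to 616 TPM in Control, -0.13, adjusted p = 0.0671), although its TPM did not overlap. Of the 7 genes named Ndufaf, which encode factors that help build complex I and leave it again, 0 rose and 2 fell. At an unadjusted p under 0.05, 0 were higher and 2 lower, and without normalization 0 were called higher and 1 lower. Ndufaf5 fell at 33.3 to 35.3 TPM in XBP1s-TG and 37.1 to 38.3 TPM in Control (-0.26, SE 0.039, adjusted p = 5.03e-04). Ndufaf2 fell in the fit (-0.20, adjusted p = 0.0367) with overlapping TPM of 48.1 to 57.0 in XBP1s-TG and 51.1 to 59.5 in Control, and its call ended without normalization (adjusted p = 0.336), with trimmed mean scaling (adjusted p = 0.127), without S1 and S3 (adjusted p = 0.0738) and without any 1 of S1, S2, S4, S6 or S8. Ndufaf6 did not pass (11.0 to 13.4 TPM in XBP1s-TG and 12.3 to 14.5 TPM in Control, adjusted p = 0.0886).

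Complex II, succinate dehydrogenase, feeds electrons from the tricarboxylic acid cycle and is encoded wholly in the nucleus. None of its 4 genes passed in either direction in limma (at an unadjusted p under 0.05, 1 was higher and 0 lower). Sdhc, one of its membrane anchors, was at 96.5, 94.1, 103 and 101 TPM in XBP1s-TG against 79.1, 87.5, 87.5 and 80.6 TPM in Control, without overlap, with a log2 fold change of 0.11 (SE 0.044, adjusted p = 0.0525 by limma). Without normalization it was called higher (0.23, adjusted p = 0.00378), as was the other anchor, Sdhd (0.11, adjusted p = 0.0250). Sdha, the catalytic subunit, was at 296 to 312 TPM in XBP1s-TG and 283 to 305 TPM in Control, and Sdhb, the iron-sulfur subunit, at 131 to 144 TPM in XBP1s-TG and 136 to 144 TPM in Control. Both overlapped.

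Complex III carries electrons from coenzyme Q to cytochrome c, and 3 of its 9 nuclear genes rose and 3 fell (4 higher and 1 lower without normalization). Cyc1, cytochrome c1, fell: it was at 281, 291, 291 and 293 TPM in XBP1s-TG against 299.8, 332, 323 and 316 TPM in Control (log2 fold change -0.24, SE 0.039, adjusted p = 6.94e-04 by limma). Uqcrc2, a core protein of the matrix side, fell with TPM of 198 to 210.9 in XBP1s-TG and 211.5 to 217 in Control (-0.17, SE 0.039, adjusted p = 0.00514) and did not pass without normalization (-0.07, adjusted p = 0.130). The 3 genes that rose encode small supernumerary subunits, but not every such subunit of the complex rose. Uqcrq rose, at 182, 171, 190.2 and 180.2 TPM in XBP1s-TG against 132, 149.8, 156 and 149.5 TPM in Control (0.20, SE 0.051, adjusted p = 0.00801), and Uqcr11 rose, at 486 to 556 TPM in XBP1s-TG and 359 to 456 TPM in Control (0.24, SE 0.064, adjusted p = 0.0106). Uqcrb rose as well (225 to 258 TPM in XBP1s-TG and 192 to 211 TPM in Control, 0.15, adjusted p = 0.0175). None of these 3 overlapped, but without S1 and S3 none of them passed (adjusted p = 0.0625 for Uqcrq, 0.0780 for Uqcr11 and 0.0992 for Uqcrb). With median centring Uqcr11 (adjusted p = 0.0708) and Uqcrb (adjusted p = 0.0927) did not pass either, and Uqcrb did not without S1 (adjusted p = 0.0560).

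Complex IV, cytochrome c oxidase, reduces oxygen to water. Of its 11 generally expressed nuclear genes 1 rose and 2 fell (1 higher and 2 lower without normalization). Cox6c, a single-span subunit, fell: it was at 122, 129.6, 117 and 129 TPM in XBP1s-TG against 139, 148, 142 and 154 TPM in Control (log2 fold change -0.33, SE 0.061, adjusted p = 0.00152 by limma). Cox4i1, the subunit that binds ATP and regulates the enzyme, fell with 475 to 495 TPM in XBP1s-TG and 516 to 568 TPM in Control (-0.21, SE 0.045, adjusted p = 0.00354). It lies whole within Gm20388, a longer gene model on the same strand at 62.1 to 69.4 TPM in XBP1s-TG and 53.2 to 58.7 TPM in Control, so a part of its reads is uncertain. Antisense genes overlap Cox6c (Vps13b) and Atp5o (Itsn1), and whether counting used strand is not given in the sources used here. Cox6a1, a regulatory subunit, rose with 898 to 980.2 TPM in XBP1s-TG and 768 to 850.5 TPM in Control (0.16, SE 0.044, adjusted p = 0.0126), but not with median centring (0.08, adjusted p = 0.222), with trimmed mean scaling (0.13, adjusted p = 0.101) or without S1 and S3 (0.13, adjusted p = 0.106). Cox8a, the most abundant nuclear gene of the chain, was at 1527 to 1635 TPM in XBP1s-TG and 1394 to 1604 TPM in Control (0.07, adjusted p = 0.259).

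The tissue-specific or related isoforms of complex IV were mostly rare in hippocampus, and 7 of 9 lay under the limit for the fit. Cox8b, an isoform known from muscle and brown fat, was at 1.44, 5.28, 0.907 and 8.71 TPM in XBP1s-TG against 9.02, 10.1, 9.18 and 11.5 TPM in Control. Its groups did not overlap (difference in mean log2(TPM + 2) -1.17, exact two-sided permutation p = 0.0286, the smallest that 4 against 4 libraries allow). The low values belonged to S1 and S3, the libraries with little choroid plexus RNA, and without both the difference was -0.43 (exact permutation p = 0.0667, the smallest that 2 against 4 allow). Without any 1 Control library the exact permutation p was 0.0571. Cox6b2, known from testis, was likewise lowest in S1 and S3 (3.85, 7.38, 4.60 and 9.91 TPM in XBP1s-TG, 7.69, 10.4, 10.4 and 7.91 TPM in Control, exact permutation p = 0.114, and 0.0286 without S4). Cox7a1, a heart and muscle isoform, was at 5.19 to 7.77 TPM in XBP1s-TG and 6.30 to 13.7 TPM in Control (exact permutation p = 0.171). Cox4i2, the isoform known from lung, was at 2.21 to 3.54 TPM in XBP1s-TG and 2.61 to 4.36 TPM in Control (p = 0.371 by the same exact permutation test), Ndufa4l2 at 4.88 to 8.13 TPM in XBP1s-TG and 5.79 to 6.50 TPM in Control (exact permutation p = 0.886), and Cox7b2 at 0.564 to 1.16 TPM in XBP1s-TG and 0.906 to 1.16 TPM in Control (exact permutation p = 0.543). Cox8c was listed at 0 in all 8 libraries. Cox6a2, a heart and muscle isoform, and Cox7a2l, a factor that links complexes III and IV, were abundant enough for the fit and did not pass (9.33 to 16.01 TPM in XBP1s-TG and 13.3 to 16.9 TPM in Control for Cox6a2, adjusted p = 0.0640 by limma, and 316 to 333 TPM in XBP1s-TG and 314 to 329 TPM in Control for Cox7a2l, adjusted p = 0.219).

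In complex V, 0 of the 5 genes of the F1 head and central stalk rose and 3 fell in limma (0 higher and 3 lower at an unadjusted p under 0.05). Without normalization 0 were called higher and 1 lower. Atp5b, the catalytic beta subunit, fell: it was at 712, 702, 716 and 736 TPM in XBP1s-TG against 776, 790.0, 805 and 752 TPM in Control (log2 fold change -0.14, SE 0.032, adjusted p = 0.00555), but it passed neither without S1 and S3 (-0.11, adjusted p = 0.0658) nor by voom on the recovered reads (-0.06, adjusted p = 0.286). Atp5c1, the gamma subunit that turns inside the head, fell with 253 to 283 TPM in XBP1s-TG and 289 to 293 TPM in Control (-0.21, SE 0.050, adjusted p = 0.00614), though it did not pass without normalization (adjusted p = 0.0898). Atp5e, the epsilon subunit, fell in the fit (-0.21, adjusted p = 0.0264) with overlapping TPM of 112 to 124 in XBP1s-TG and 115 to 137 in Control, and lost the call without normalization (adjusted p = 0.179), with trimmed mean scaling (adjusted p = 0.0561), without S1 and S3 (adjusted p = 0.215) and without any 1 of S1, S3, S6, S7 or S8. Atp5a1, the alpha subunit and the most abundant gene of the head, was at 783 to 827 TPM in XBP1s-TG and 793 to 832 TPM in Control (-0.04, adjusted p = 0.427).

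Of the 10 nuclear genes of the peripheral stalk and membrane part of complex V 1 rose and 4 fell (2 higher and 2 lower without normalization). Those that encode the c subunit diverged. The c subunits form the ring that protons turn, and 3 genes encode the same mature protein behind different import peptides. Atp5g1 (ENSMUSG00000006057, chr11:96068852-96075670, minus strand) rose: it was at 125, 118, 134 and 122 TPM in XBP1s-TG against 74.2, 80.8, 79.6 and 77.6 TPM in Control (log2 fold change 0.54, SE 0.043, adjusted p = 1.38e-05 by limma). Atp5g3 (ENSMUSG00000018770, chr2:73908447-73911326, minus strand), the most abundant of the 3, fell: it was at 283, 286, 266 and 285 TPM in XBP1s-TG against 292, 318, 310.4 and 315 TPM in Control (-0.24, SE 0.047, adjusted p = 0.00207). Atp5g2 (ENSMUSG00000062683, chr15:102662864-102672352, minus strand) was at 144, 146, 157 and 139 TPM in XBP1s-TG against 125, 138, 137 and 135 TPM in Control, just without overlap, and did not pass (0.03, adjusted p = 0.627). Both calls held in all 4 scalings. That of Atp5g3 ended without normalization and without S1 and S3 together (-0.11, adjusted p = 0.144 by limma). Atp5g1 took 21.4% to 24.1% of the TPM of the 3 genes in XBP1s-TG and 14.7% to 15.1% in Control, and the 3 genes summed to 546 to 557 TPM in XBP1s-TG and 491 to 538 TPM in Control.

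The coding sequences of the 3 genes end in 78 codons that give the same amino acids in each. Of these 234 bases 63 differ in at least 1 gene, so reads over them could be assigned to 1 gene. The first 120 bases of this stretch, from GENCODE M21 transcripts on GRCm38, show how far the genes differ under the same protein, with capitals at bases where at least 1 of the 3 differs.
Atp5g1: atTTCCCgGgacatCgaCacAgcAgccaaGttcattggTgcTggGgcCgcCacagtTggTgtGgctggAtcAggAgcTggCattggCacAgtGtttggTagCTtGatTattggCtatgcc
Atp5g2: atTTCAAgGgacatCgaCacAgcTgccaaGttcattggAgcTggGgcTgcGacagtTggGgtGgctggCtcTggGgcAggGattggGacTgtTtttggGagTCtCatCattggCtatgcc
Atp5g3: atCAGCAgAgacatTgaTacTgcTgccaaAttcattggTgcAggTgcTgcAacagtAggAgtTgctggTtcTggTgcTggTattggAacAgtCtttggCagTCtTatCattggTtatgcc
Atp5g1 and Atp5g2 differ at 36 of the 234 bases, Atp5g1 and Atp5g3 at 50, and Atp5g2 and Atp5g3 at 53. Pseudogene copies held at most 2.04% of the reads of any of the 3.

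**Figure D5:**
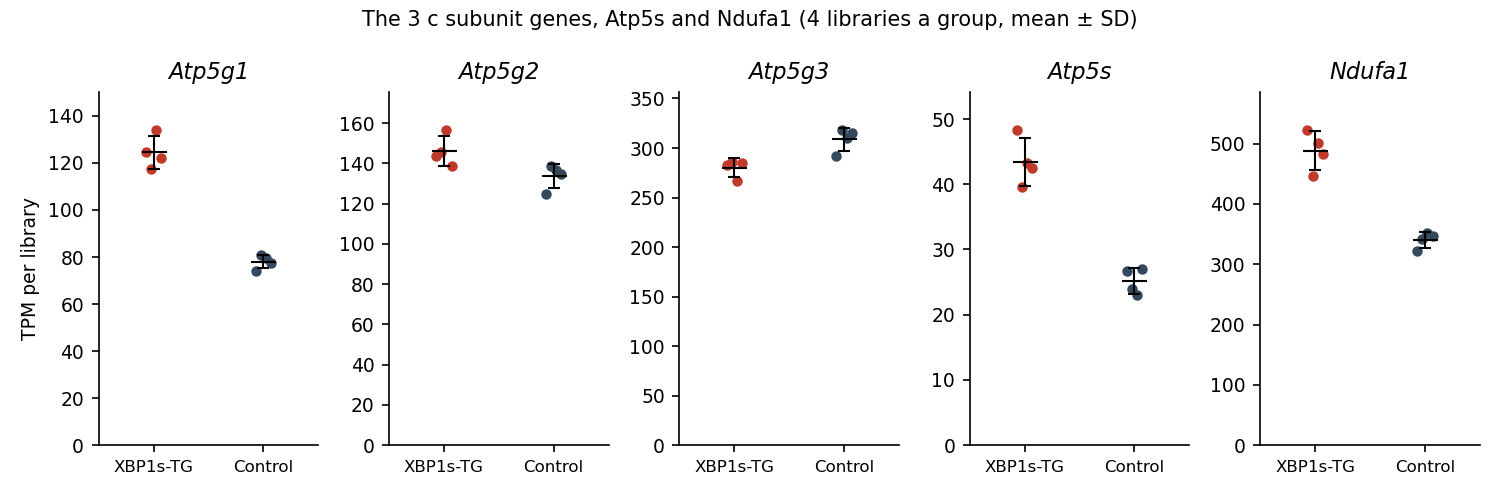
TPM in each library of the 3 c subunit genes, Atp5s and Ndufa1 (XBP1s-TG left, Control right, mean and SD of 4 libraries, each axis from 0). Atp5g1 (118 to 134 against 74.2 to 80.8 TPM), Atp5s and Ndufa1 are higher in every XBP1s-TG library than in any Control library, and Atp5g3 is lower (266 to 286 against 292 to 318 TPM).

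Elsewhere in this part of the enzyme, Atp5o, the stalk subunit that confers oligomycin sensitivity, fell: it was at 168, 177, 164 and 173 TPM in XBP1s-TG against 179, 185, 189 and 188 TPM in Control (log2 fold change -0.21, SE 0.046, adjusted p = 0.00401 by limma). Atp5l, subunit g and the most abundant gene of this group, did not pass (694 to 753 TPM in XBP1s-TG and 619 to 745 TPM in Control, adjusted p = 0.356). The 2 genes named for their likeness to complex V factors both rose. Atp5s (ENSMUSG00000054894, chr12:69724962-69744658, plus strand), coupling factor B, was at 48.3, 39.6, 43.2 and 42.4 TPM in XBP1s-TG against 26.7, 23.9, 23.0 and 27.02 TPM in Control (0.63, SE 0.084, adjusted p = 2.48e-04). It was the 1 gene past 1.5-fold, and it kept the call but not the 1.5-fold limit without S1 (0.58), without S7 (0.58) and without S1 and S3 together (0.56). Atp5sl, which is known to take part in the assembly of complex I, was at 45.9, 43.0, 51.9 and 44.3 TPM in XBP1s-TG against 30.9, 33.6, 33.7 and 32.7 TPM in Control (0.35, SE 0.057, adjusted p = 7.75e-04).

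Promoters bear on genes that move together, so the region from 250 bases before to 50 bases after the start of each gene was searched in RefSeq sequences on GRCm38.p6, for 76 of the 93 nuclear genes. The site of NRF-1, a transcription factor known for nuclear respiratory genes, is spelled out in capitals for Atp5g2 below and was searched with any base at the sixth position. It was found on either strand in 19 of 76 (25.0%), against 5.19% of all 27025 genes with such a sequence. It was found for 10 of 23 genes that fell, 2 of 9 that rose and 7 of 40 that passed in neither direction. CCGGAAG, a site of GABP (NRF-2), was found in 17 of 76 (22.4% against 9.93% of all genes), which were 3 of the 23 that fell, 2 of the 9 that rose and 12 of the 40. AAGATGGC, a site of YY1, was found in 11 of 76 (14.5% against 3.19%), which were 4 of the 23, 1 of the 9 and 6 of the 40. TGACGTGG, the unfolded protein response element that XBP1s binds, was found in 1 of 76, Atp5s, against 0.714% of all genes. CCACG, which is also part of TGACGTGG read on the other strand, was found in 31 of 76 (40.8% against 35.5%), which were 7 of the 23 that fell, 6 of the 9 that rose and 17 of the 40. These splits follow the calls of the quantile-normalized fit and carry no test. The ER stress element and its second form, both longer sites of the unfolded protein response, were found in 0 of 76, against 0.137% and 0.0444% of all genes. A match is a description of letters, not of a site in use. The 120 bases before the start are printed for Atp5s, the gene with the largest rise, and for the c subunit genes, which diverged, with TGACGTGG, CCACG on either strand and the NRF-1 site in capitals.
Atp5s (chr12:69724825-69724944, plus strand): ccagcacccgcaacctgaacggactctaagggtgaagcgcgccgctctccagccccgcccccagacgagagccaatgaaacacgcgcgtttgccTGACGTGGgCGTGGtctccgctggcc
Atp5g1 (chr11:96075632-96075751, minus strand): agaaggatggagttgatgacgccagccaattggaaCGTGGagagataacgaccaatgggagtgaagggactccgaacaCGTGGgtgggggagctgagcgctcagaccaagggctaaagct
Atp5g2 (chr15:102671048-102671167, minus strand): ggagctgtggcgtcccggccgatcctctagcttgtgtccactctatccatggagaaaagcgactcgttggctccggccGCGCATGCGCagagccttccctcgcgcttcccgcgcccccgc
Atp5g3 (chr2:73911327-73911446, minus strand): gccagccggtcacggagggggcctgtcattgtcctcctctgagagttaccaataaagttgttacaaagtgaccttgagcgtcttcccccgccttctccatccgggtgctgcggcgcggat
The TGACGTGG of Atp5s lies 26 to 19 bases before its start. The NRF-1 letters of Atp5g2 lie 42 to 33 bases before its start, and those of Atp5g3 lie 13 to 22 bases after its start and are not printed. Further matches of CCACG also lie outside the printed bases. They are 241 to 237 bases before the start of Atp5g2 and 168 to 164 bases before that of Atp5g1. For Atp5s they are 206 to 202 bases before and 14 to 18 bases after the start. Starts here are those of RefSeq, which can differ from the ends of the gene spans given above. The bases printed for Atp5g2 lie inside its span, and those for Atp5g1 do so in part.

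Other genes of the pathway moved in both directions in the quantile-normalized fit, where 24.4% of all genes rose and 29.4% fell, and mostly upward without normalization, where 33.9% of all genes were higher and 14.6% lower. Of 33 further assembly factors tested 8 rose and 6 fell, against 17 higher and 1 lower without normalization. Surf1, which takes part in the assembly of complex IV, rose with 122 ± 11.4 TPM in XBP1s-TG and 69.99 ± 3.72 TPM in Control (SD, n = 4 each, log2 fold change 0.66, adjusted p = 2.13e-05 by limma). Cox10, which takes part in the synthesis of heme A for complex IV, fell with 20.3 ± 0.857 TPM in XBP1s-TG and 24.7 ± 0.911 TPM in Control (-0.35, adjusted p = 5.14e-04). Of 12 genes of electron carriers and coenzyme Q synthesis 2 rose and 5 fell (3 higher and 2 lower without normalization), with Coq10a (0.33, adjusted p = 8.95e-04) and Coq3 (-0.25, adjusted p = 0.00799) at the smallest adjusted p. Of 13 genes of the tricarboxylic acid cycle 5 rose and 6 fell, against 6 higher and 1 lower without normalization. Idh3b, a subunit of isocitrate dehydrogenase, fell with 148 ± 4.27 TPM in XBP1s-TG and 179 ± 2.52 TPM in Control (-0.38, adjusted p = 9.05e-05), and Ogdh, of oxoglutarate dehydrogenase, rose (0.27, adjusted p = 0.00133).

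Of 15 genes that transcribe, copy or process mitochondrial DNA and its RNA 2 rose and 3 fell (3 higher and 1 lower without normalization). Tfb2m, which opens mitochondrial promoters for the polymerase, rose: it was at 50.6, 41.0, 47.2 and 46.5 TPM in XBP1s-TG against 29.9, 27.5, 29.0 and 28.3 TPM in Control (log2 fold change 0.53, adjusted p = 1.02e-04 by limma). Hsd17b10, a subunit of the enzyme that cuts the 5' ends of mitochondrial transfer RNAs, fell (42.8 ± 1.38 TPM in XBP1s-TG and 50.8 ± 3.80 TPM in Control, -0.35, adjusted p = 0.00150). Of 7 regulators of respiratory genes 1 rose and 2 fell (1 higher and 0 lower without normalization, and 0 in either direction without S1 and S3), with Esrra and Pprc1 at the smallest adjusted p. Esrra, a nuclear receptor, was lower in the fit (-0.24, adjusted p = 0.0104), but its TPM overlapped at 56.7 to 65.6 in XBP1s-TG and 58.6 to 72.6 in Control, and it passed neither without normalization (-0.13, adjusted p = 0.171) nor without S1 and S3 (-0.21, adjusted p = 0.0872). Pprc1, a coactivator, was higher (0.24, adjusted p = 0.0229), but not without S3 (adjusted p = 0.0503), without S5 (adjusted p = 0.0618) or without S1 and S3 (adjusted p = 0.138). Of 71 mitochondrial ribosomal protein genes 10 rose and 22 fell, with a median of -0.06, beside -0.04 for all genes tested. Without normalization 25 were higher and 3 lower, with a median of 0.04 beside 0.07, and in TPM 24 were higher and 5 lower without overlap (34.1% and 13.2% of all genes). Mrps12 stood apart at 238, 210.3, 292 and 229.6 TPM in XBP1s-TG against 79.7, 92.8, 88.4 and 86.9 TPM in Control (1.34, adjusted p = 3.30e-06), and Mrps23 rose too (0.32, adjusted p = 1.76e-04).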

How the data were processed

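Libraries from 500 ng of hippocampal total RNA (KAPA Stranded mRNA-Seq Kit, Illumina sequencing) were, per the submitters' notes and the study's methods, checked with FastQC, trimmed with Trimmomatic and mapped to GRCm38 (annotation release 83) with CLCbio Genomics Workbench. Whether counting used strand is not given in the sources used here. The authors deposited TPM values of 46983 genes in 8 libraries, each summing to 1000000, with group means, a fold change and a p-value per gene, and the last 2 were not used. The TPM values deposited by the authors are neither log transformed nor normalized further.

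From these, 2 was added, log2 taken, and libraries quantile normalized. Genes that exceeded 4 on that scale, or 14 TPM, in 1 library or more entered a model in limma 3.58.1 in R 4.3.3 (lmFit, eBayes with a trend, Benjamini-Hochberg over 9270 genes). Fold changes on the log2(TPM + 2) scale understate those of low genes. Genes under the limit were compared with an exact permutation test. Sums, ratios and medians over genes carry no test. The labels number 4 replicates a group, and p-values measure the spread between these samples. No pair of libraries held identical values. Whole reads were recovered from the TPM steps for 29237 of 29237 genes above 0 TPM (tolerance 0.001 read), 34874446 to 52136060 per library. A gene at 14 TPM holds 155 to 232 reads per kilobase. Pseudogene copies of at least 95% identity over 100 bases were found with BLAST+ 2.17.0 in GENCODE M21 transcripts.

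The genes named are all mitochondrial mRNAs, the 3 smallest adjusted p and the most abundant gene of each list of nuclear subunits, all past 1.5-fold, the rare isoforms reaching 1 TPM, and the 2 smallest adjusted p of each pathway list. A gene that this rule names is not reported here. Ndufv3, Ndufa2, Uqcrb, Sdhd, Wfs1, Neurod6, Atp5g2, Cox8c and the copies were named after their values were seen. The members and lists were chosen with earlier results of these data known. Giving the unnormalized fit beside the quantile-normalized one for the mitochondrial mRNAs was chosen after seeing the data. Alternatives changed the pseudocount, the filter, the normalization, the test, the treatment of copies and the libraries included. The fit was tested on simulated data.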

Additional observations from a re-analysis of the deposited data

Results flagged for a closer look

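In 148 groups of 4 libraries checked (the named genes and the sums), 7 held a library whose gap to the nearest other one exceeded the limit of Dixon's test as a share of the group's range, which chance passes in about 1 group in 20. Among XBP1s-TG libraries these were S1 for Cyc1 (a gap of 0.833 of the range) and S3 for Atp5g3 (0.850), both the lowest of their group. Among Control libraries they were S8 for mt-Nd4l (0.855) and Ndufa5 (0.891), both the highest, and S5 for Ndufa6 (0.832) and for the summed nuclear subunits of complex III (0.855) and of complex V (0.843), all 3 the lowest. S5 was also the most deeply sequenced library.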

How the results depend on the processing

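No paired analysis was possible because the columns of the table carry no replicate numbers, so the planned replicate block was not run. Precision is limited by 4 libraries a group, and for the rare isoforms by few reads. Of the 38 named genes called by limma, 19 kept call and direction under every alternative. Beside the losses given with each gene, the calls of mt-Nd2, Ndufa6, Ndufa2, Ndufaf2, Cox6a1 and Atp5e also ended without a filter, and those of Ndufa6, Ndufa2, Ndufv3, Ndufaf2, Uqcr11 and Atp5e with a variance per gene and group. By voom on the recovered reads those of Ndufa6, Ndufa2, Ndufaf2, Uqcr11 and Uqcrb ended. Without normalization and without S1 and S3 together, the calls of Cyc1, Cox4i1, Ndufb8, Atp5g3, Atp5o and Coq3 ended as well (adjusted p = 0.0759 to 0.229 by limma). Alternatives that pool copies, leave normalization out of voom, or combine a scaling with leaving out S1 and S3 were chosen after seeing the data, and the cause of the changes below was not tested unless the setting's own construction shows it.

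The 12 higher and 29 lower members became 7 and 45 with median centring, 5 and 13 without S1 and S3, 5 and 19 with median centring without S1 and S3, and 8 lower without normalization and without S1 and S3. Leaving out each library in turn gave 10 to 13 higher and 20 to 37 lower. The 1 member past 1.5-fold upward (0 to 1 with each library left out, 0 without S1 or S7) became 2 without normalization, also without S1 and S3, with copies pooled or by voom (Atp5g1 joined), and 0 without S1 and S3 with quantile normalization or median centring. Downward, 0 became 1 with median centring (mt-Nd3), with TPM rescaled without the mitochondrial genome (Cox8b) and with median centring without S1 and S3 (Cox6a2), and 0 to 1 with each library left out (1 without S8).

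The 1 mitochondrial mRNA that fell became 0 without a filter and without S1 and S3, 2 with the exon length trend removed and with copies pooled, 3 by voom on recovered reads, 4 and 5 without S1 and S3 unnormalized and median centred, 11 without normalization (with or without copies pooled), 12 with trimmed mean factors and by voom without normalization, and 13 with median centring (1 to 2 with each library left out, 2 without S2 or S7). The unnormalized count of 11 became 1 with quantile normalization, 4 and 5 without S1 and S3, and 9 to 13 with each library left out. The median of the nuclear members, -0.09, moved to 0.0098 without normalization (0.0099 with copies pooled), -0.0072 when S1 and S3 were left out of that, and -0.037 by voom without normalization. That of the mitochondrial mRNAs, -0.02, moved to -0.32, -0.44 and -0.40 without normalization, with median centring and with trimmed mean factors, -0.11 and -0.37 by voom with and without normalization, -0.27 and -0.38 without S1 and S3 unnormalized and median centred, and -0.29 unnormalized with copies pooled. Cox8b was at -0.43 without S1 and S3, where no gene could pass because the smallest exact permutation p of 2 against 4 libraries is 0.0667. It ranged over -1.51 to -0.89 with each library left out (exact permutation p = 0.0571 without any 1 Control library). Cox6b2 ranged over -0.63 to -0.29 and passed only without S4.

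Some small estimates of the quantile-normalized fit changed sign. In the order mt-Nd4, mt-Nd5, mt-Cytb and mt-Co2 they were -0.28, -0.20, -0.25 and -0.36 without normalization (Sdha 0.047 and Cox7a2l 0.023), -0.40, -0.32, -0.37 and -0.49 with median centring (Cox8a -0.081, Atp5l -0.054), -0.36, -0.28, -0.33 and -0.45 with trimmed mean factors (Cox8a -0.037, Atp5l -0.010), and -0.33, -0.24, -0.30 and -0.42 by voom without normalization. Without S1 and S3 they were -0.19, -0.10, -0.18 and -0.33 unnormalized (Sdhb 0.022, Sdha 0.038, Cox7a2l 0.025) and -0.30, -0.21, -0.28 and -0.44 median centred (Cox8a -0.091, Atp5l -0.036). With copies pooled and no normalization they were -0.28, -0.20, -0.25 and -0.33 (Sdha 0.047, Cox7a2l 0.022), and with copies pooled alone mt-Co2 was at -0.026 and mt-Co3 at 0.026. By voom on recovered reads mt-Cytb was at -0.041, mt-Co2 at -0.14, Cox8a at -0.051, Atp5a1 at 0.068 and Atp5l at -0.043. mt-Co2 was at -0.014 with the length trend removed and -0.016 without S1 and S3, where Ndufa4l2 was at -0.17. With each library left out, mt-Cytb ranged over -0.014 to 0.068, mt-Co2 over -0.033 to 0.096 and Ndufa4l2 over -0.069 to 0.12. No other named gene changed sign under these alternatives with both estimates at least 0.005 from 0.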
